A study of Mus musculus with 12 samples.

Results

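The transcripts described here were lower in activated than in resting microglia and stood higher again in activated cells given the compound E33. They were found on single-colour bead arrays of BV2 cells, an immortalised mouse microglial line, with 1 array for each of 12 conditions. The conditions were activated cells given 1 of 10 hit compounds (E33, E29, E23, E21, E20, E19, E18, E14, E5 and E4), activated cells without a compound (the activated control) and cells given neither stimulus nor compound (the non-activated control). All 11 activated cultures had received 1 µg/ml of lipopolysaccharide (LPS) with 10 ng/ml of interferon-γ (IFN-γ), for 4 h. Compound structures and doses are not described here, and each condition is 1 culture of 1 cell line.

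Members were chosen on the authors' processed intensities, raised to at least 50 and taken to log2. A probe was repressed if the median of the 11 activated arrays lay at least 1 below the non-activated control on the log2 scale, which is 2-fold, and 654 of 25697 probes did so (5.91% of the 11072 above 50 on any array). A member was in addition at least 1.5-fold higher in E33 than in the activated control (a log2 difference of 0.585) and not 1.5-fold lower in E29. Of 139 repressed probes past the E33 threshold, 20 were removed by the E29 condition. This left 119 member probes, of which 115 represent 107 named genes and 4 carry no gene name. Both contrasts chose the members, so the size of the fall and of the E33 difference is a description, and with 1 array per condition no difference has a replicate check.

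Microglia are the resident macrophages of the brain. LPS acts through the receptor TLR4 and IFN-γ through its own receptor and the JAK-STAT pathway, and together they switch on inflammatory genes. The same stimulus lowers many transcripts of the resting cell, among them receptors that sense nucleotides and growth factors, regulators of small GTPases, and enzymes of lipid metabolism. This second, repressed arm of the response is the one that the members belong to.

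Each array carried 8538 to 9493 probes with a detection p-value under 0.01. The non-activated and E33 arrays had the most (9409 in E33, 8871 in the activated control and 9493 in the non-activated control) and also the dimmest detected signals (50.02, 60.6 and 48.4). The part of this difference in the results was not tested. Of 10 microglia or macrophage markers 8 were on the array, and 6 were detected on all 12 arrays (Aif1, Spi1, Fcgr3, Tyrobp, Ptprc and Trem2). Itgam was detected on 1 array and Cx3cr1 on 2. The summed level of the 8 was 9511 in E33, 8716 to 10688 in the 9 other compounds, 9831 in the activated control and 9740 in the non-activated control. None of the neuron, astrocyte, fibroblast, endothelial or T cell markers was detected on any array. Of the 3 oligodendrocyte markers measured, 2 were detected on none, while Mog was detected on 2 arrays.

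The members were dim to moderately expressed transcripts that stood in E33 about midway between activated and resting levels. Their median processed intensity was 171 in E33, 97.3 to 120 in the 9 other compounds, 88.3 in the activated control and 329 in the non-activated control. E33 stood apart from the 10 other activated arrays, whose medians lay within a narrow range, and the rule favours this gap. The other repressed probes had medians of 138 in E33, 143 in E29 and 125 in the activated control. With activation the members were a median of 2.72-fold lower (range 2.02 to 10.9), and 24 of the 119 were at least 4-fold lower. For 115 of them the non-activated level lay above all 11 activated arrays, as for 502 of the 535 other repressed probes and 27.1% of all probes tested. The rule favours this count. The exceptions were Cenpn, Slc19a2, Ccdc117 and Amd2, which E29-treated cells held above the resting level.

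On the log2 scale the members lay a median of -0.81 from the non-activated control in E33 and -1.62 in the activated control. The share of the activation fall recovered in E33, on that scale, had a median of 49.2% and ran from 22.4% to 97.2%. It exceeded 75% for 10 members, and for none of the 119 did E33 reach the non-activated level. In E33, 40 members lay within 1.5-fold of the non-activated control and 78 within 2-fold. The other 535 repressed probes had a median of -1.15 in E33 and -1.30 in the activated control.

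**Figure D1:**
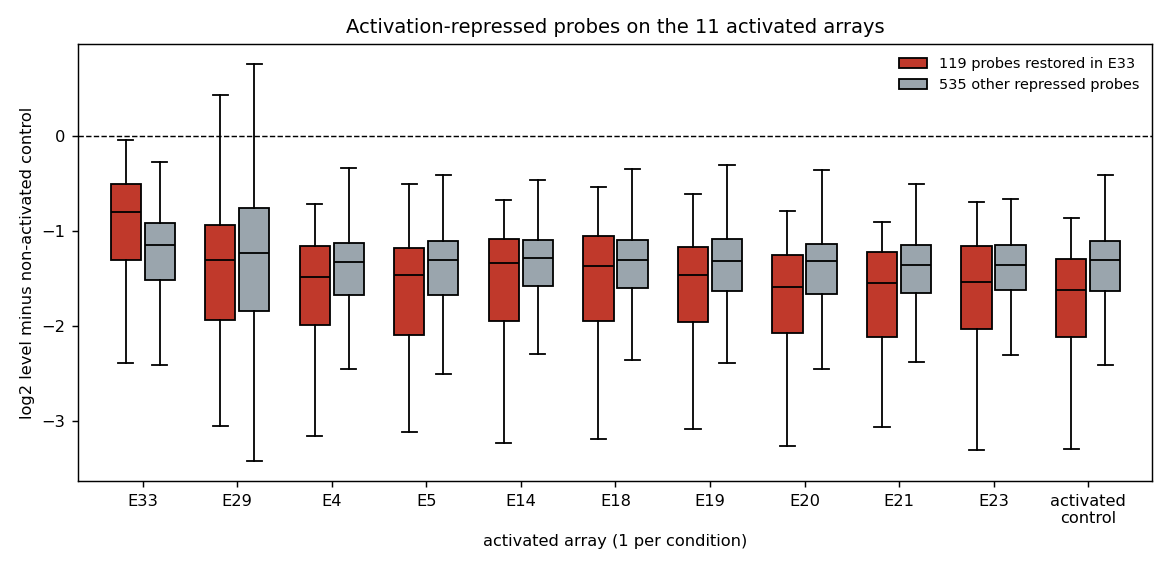
Level of the 119 members (red) and of the 535 other repressed probes (grey) on each of the 11 activated arrays, as the log2 difference from the non-activated control; boxes give the quartiles over probes, lines the median, whiskers the furthest values within 1.5 interquartile ranges, and the dashed line the non-activated level. The members' median is -0.81 in E33, against -1.31 to -1.59 in the 9 other compounds and -1.62 in the activated control.

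The 20 members that stood furthest above the other 10 activated arrays in E33 included Tmem154, Arl11, Fam78a and Mlycd at the top. Tmem154 had 178 units in E33, 22.2 to 67.4 (median 44.5) in the 9 other compounds, 66.5 in the activated control and 329 in the non-activated control, so that E33 alone stood clear of the other activated arrays. E33 was 2.67-fold above the activated control. Arl11, an Arf-like small GTPase, had 460 units in E33, 97.3 to 424 (median 151) in the 9 other compounds, 133 in the activated control and 1637 in the non-activated control. It was the member with the largest fall, 10.9-fold, and the highest of the 9 compounds was E4, just under E33.

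Fam78a had 217 units in E33, 44.9 to 107 (median 72.0) in the 9 other compounds, 44.5 in the activated control, where it was not detected, and 713 in the non-activated control. E33 was at least 3.58-fold above the activated control. Mlycd had 220 units in E33, 52.5 to 109 (median 72.5) in the 9 other compounds, 82.1 in the activated control and 325 in the non-activated control. Mlycd encodes malonyl-CoA decarboxylase, which removes the inhibitor of fatty acid entry into mitochondria, and 71.8% of its fall was recovered in E33.

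Lat, an adaptor of antigen-receptor signalling best known from T cells, had 142 units in E33, 39.2 to 76.6 (median 50.4) in the 9 other compounds, 50.2 in the activated control and 146 in the non-activated control. At 97.2% its recovered share was the highest of the members, and other high shares were those of Pcyox1 (86.1%), Fbxo21 (85.3%), Accs (81.3%) and Btbd6 (80.3%). Of these, Lat, Fbxo21, Accs and Btbd6 were not detected in the activated control. Their shares thus rest on a control level at or near the floor of 50.

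**Figure D2:**
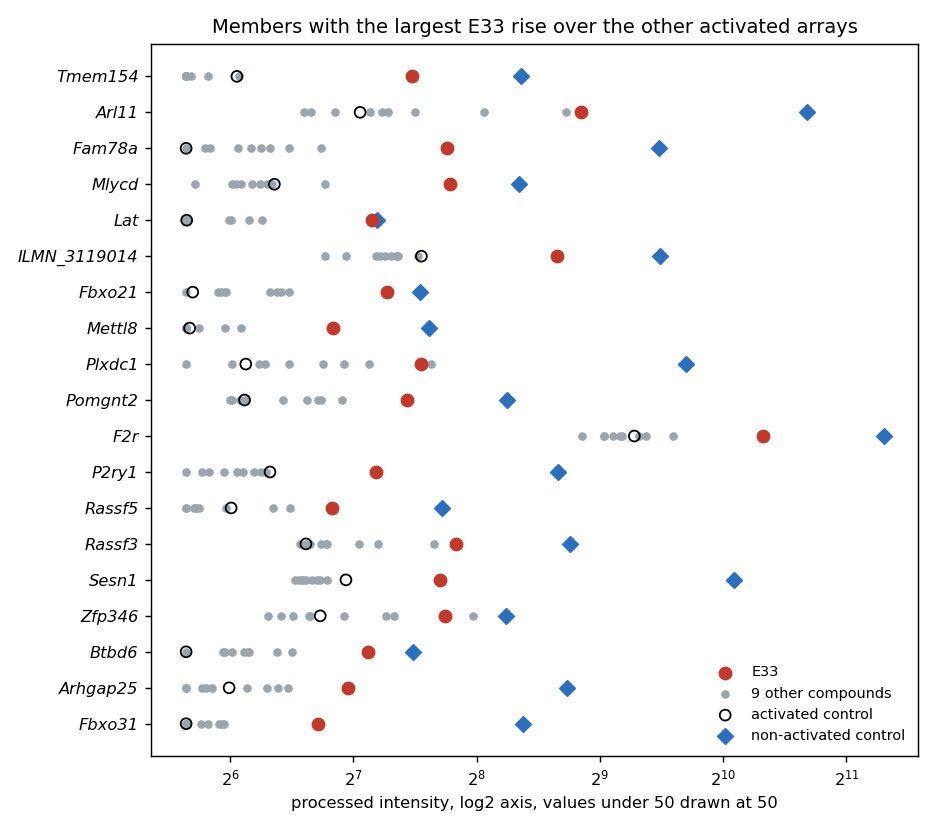
Processed intensity (log2 axis) of leading members, all but 1 of the 20 furthest above the other 10 activated arrays in E33 (by their median), with E33 in red, the 9 other compounds in grey, the activated control as open circles and the non-activated control as blue diamonds; values under 50 are drawn at 50. E33 lies between the cluster of other activated arrays and the non-activated level, except for Plxdc1 and Zfp346, where E29 lies above E33.

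For Tmem154, Arl11 and Mlycd the table of promoters used here holds a single window, 250 bases before to 50 after the gene's start. These sequences are shown because the 3 genes were all high on the E33 array. They come from RefSeq (GRCm38.p6) and lie at chr3:84665942-84666241 on the plus strand (Tmem154), chr14:61309503-61309802 on the plus strand (Arl11) and chr8:119394644-119394943 on the plus strand (Mlycd). Capitals mark matches, on either strand, to 7 searched motifs, namely GAGGAAG (PU.1, the macrophage ETS factor), CCGGAAG (other ETS factors), GGGGCGGGG (Sp and KLF factors), CACGTG (the E-box), TGTTTAC (FOXO), TGACGTCA (the cAMP response element) and the NF-κB consensus. The first 2 motifs share their ending GGAAG.
Tmem154: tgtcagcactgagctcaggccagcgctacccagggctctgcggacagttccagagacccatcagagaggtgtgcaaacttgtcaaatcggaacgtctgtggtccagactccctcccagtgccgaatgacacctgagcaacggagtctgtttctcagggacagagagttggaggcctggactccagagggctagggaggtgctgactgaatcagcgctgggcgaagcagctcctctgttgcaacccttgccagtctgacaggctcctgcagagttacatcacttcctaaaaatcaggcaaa
Arl11: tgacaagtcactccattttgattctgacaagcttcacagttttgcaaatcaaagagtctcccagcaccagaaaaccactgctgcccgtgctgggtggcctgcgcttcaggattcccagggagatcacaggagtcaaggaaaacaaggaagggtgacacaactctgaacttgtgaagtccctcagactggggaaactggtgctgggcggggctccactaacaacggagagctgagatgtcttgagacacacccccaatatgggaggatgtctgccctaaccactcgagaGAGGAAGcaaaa
Mlycd: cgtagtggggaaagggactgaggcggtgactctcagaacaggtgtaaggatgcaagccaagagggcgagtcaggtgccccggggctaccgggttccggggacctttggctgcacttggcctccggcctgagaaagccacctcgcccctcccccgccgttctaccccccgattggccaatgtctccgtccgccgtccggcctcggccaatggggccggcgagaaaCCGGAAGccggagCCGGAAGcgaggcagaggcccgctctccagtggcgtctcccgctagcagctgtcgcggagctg

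The Arl11 window holds 1 match, to the PU.1 motif, and the Mlycd window 2, both to the ETS motif CCGGAAG. That of Tmem154 holds none of the 7 strings. Over the 126 windows of the 92 member genes found in the table, GAGGAAG was present in 22.2%, against 14.3% of the 510 windows of other repressed genes and 13.6% of all 32851 windows. GGGGCGGGG was present in 30.2%, 18.4% and 11.4%, CCGGAAG in 13.5%, 11.8% and 8.86%, and CACGTG in 11.9%, 12.2% and 7.15%. TGTTTAC was present in 1.59%, 2.16% and 3.65%, TGACGTCA in 2.38%, 2.35% and 1.79%, and the NF-κB consensus in 0%, 0% and 0.155%. The windows also differed in base composition, with a median GC content of 62.7% for member genes, 60.3% for other repressed genes and 52.7% for all, and its part in the motif shares was not tested.

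An E33 array above the activated control can reflect a high level in E33 or a low one in the control, and the rule does not separate these. The 9 other compound arrays offer a baseline free of both arrays. Against their median the members stood at 0.71 in E33 (interquartile range 0.51 to 0.85, log2 scale) and at -0.13 in the activated control (-0.30 to 0.0028). The other repressed probes stood at 0.17 and 0. For 106 of the 119 members the E33 part of the difference was the larger one. The same held for 338 of the 535 other repressed probes and 4939 of the 10826 probes tested. The rule asked for a high E33 level and a low median of the activated arrays, which include these 9. The choice of members thus favours this split.

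E33 was at least 1.5-fold above the 9 other compounds for 79 members, against 3.71% of all probes tested and 47 of the 535 other repressed probes. It was the highest of the 11 activated arrays for 84 members (70.6%), against 24.7% of the other repressed probes and 12.3% of all probes tested. The choice of members favours both counts. E29 was highest for 21 of the remaining members and E19 for 6. The matching shares of all probes were not counted. E29 was at least 1.5-fold above the median of the other 10 activated arrays for 15.6% of all probes tested. The activated control was the lowest of the 11 for 16 members (13.4%), against 6.54% of all probes tested.

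The activated control lay above the 9-compound median for 30 members and below it for 85. P2ry1, Sesn1 and Tgfbr2 were among the 30, by 0.27, 0.33 and 0.12, and had an E33 level further above that median, by 1.13, 1.09 and 0.79. The activated control lay furthest under that median for Gadd45g, by 0.92, with E33 0.97 above it. Next came Jade1, Tsc22d3 and Klhl21, whose activated control lay 0.71, 0.72 and 0.73 under that median. E33 exceeded the median of the 9 compounds by only 0.08, 0.33 and 0.24 there. Tsc22d3, for example, had 247 units in E33, 134 to 285 (median 197) in the 9 other compounds, 119 in the activated control and 703 in the non-activated control. For Jade1, Tsc22d3 and Klhl21 most of the difference from the activated control was thus shared by other compounds, and Jade1, Klhl21 and Gadd45g were named after their values were seen.

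**Figure D3:**
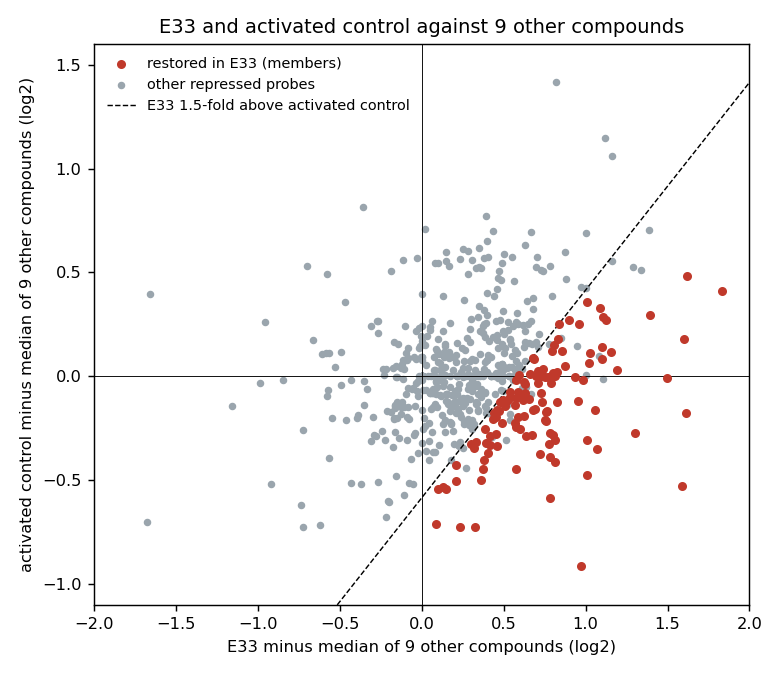
Difference of E33 (horizontal) and of the activated control (vertical) from the median of the 9 other compounds, in log2 units, for the 119 members (red) and the 535 other repressed probes (grey); the dashed line marks E33 at 1.5-fold above the activated control. Members spread along the line with medians of 0.71 for E33 and -0.13 for the activated control; grey points right of it are the 20 probes that were lower in E29.

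The E33 difference of repressed probes was seen at every signal level. Probes were split by their mean log2 level over all 12 arrays and set beside probes of like brightness within 1.5-fold of the resting level after activation. Among the 133 repressed probes with a mean of at least 8.5, the median of E33 against the 9 other compounds was 0.25, against -0.012 for the 2756 unresponsive probes. Between 7.5 and 8.5 the values were 0.28 and -0.035, between 6.5 and 7.5 they were 0.34 and -0.052, and below 6.5 they were 0.18 and 0. At least 1.5-fold higher levels in E33 were found for 8.27%, 19.1%, 28.0% and 19.3% of the repressed probes from the brightest to the dimmest class. The matching shares of unresponsive probes were 0.871%, 1.72%, 2.54% and 2.08%. Repressed probes were chosen for a low median of activated arrays that include these 9, which favours the difference. Of the 126 repressed probes at least 1.5-fold higher, 79 were members, which were chosen for a high E33 level. The other compounds were not set out by signal level. Members numbered 15, 20, 43 and 41 in these classes, so most were dim.

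Dimness limits single values. All 119 members were detected on both the E33 and non-activated arrays, and 74 on all 12, but 29 were not detected in the activated control. Against the lowest detected signal of that array, 12 of the 29 were at least 1.5-fold higher in E33 and for 17 the bound was lower, as for Klf2 (at least 1.43-fold) and Fkbp5 (at least 1.40-fold). At the threshold itself the lowest members were Rhobtb2, Polrmt and Slc44a2, each at 0.59 on the log2 scale. The repressed probes just below it were those of Acvr2b, F8a and Dmac2, each at 0.58.

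Part of the members were placed in 11 groups by what their products do, a grouping made after the values were seen. The remaining members were not grouped. The groups are described and not ranked, since the E33 level chose the members. For comparison, E33 was the highest activated array for 70.6% of all members. The 9 small GTPases, their regulators and membrane adaptors had a median of 1.10 against the 9 other compounds (range 0.84 to 1.62), and E33 was the highest activated array for 8 of them. Besides Arl11 and Lat they included Rassf5, an effector of Ras and Rap1, Rassf3, Def6, a guanine nucleotide exchange factor, Rhobtb2, the lymphocyte adaptor Sash3 and the Rac regulator Arhgap25. Arhgap25 had 124 units in E33, 45.4 to 88.5 (median 57.8) in the 9 other compounds, 63.7 in the activated control and 424 in the non-activated control. Sash3 was among the most repressed, at 10.1-fold, and had 163 units in E33, 47.8 to 115 (median 89.9) in the 9 other compounds, 97.7 in the activated control and 957 in the non-activated control. Both were highest in E33 among activated arrays, but far from the resting level.

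The receptors and ligands numbered 6, of which 5 were highest in E33, near the share of all members. F2r, the thrombin receptor PAR1, had 1278 units in E33, 463 to 772 (median 573) in the 9 other compounds, 621 in the activated control and 2523 in the non-activated control. E33 was 2.06-fold above the activated control, and 51.5% of the fall was recovered. P2ry1, a receptor for extracellular ADP, had 145 units in E33, 46.7 to 78.4 (median 66.5) in the 9 other compounds, 80.1 in the activated control and 405 in the non-activated control. Tgfbr2, the type II receptor for TGF-β, a signal that keeps microglia in the resting state, had 437 units in E33, 218 to 343 (median 252) in the 9 other compounds, 275 in the activated control and 552 in the non-activated control. For all 3 genes E33 lay above every other activated array.

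Angpt2, a ligand of the receptor Tie2, was 8.78-fold lower with activation and had 190 units in E33, 71.0 to 128 (median 107) in the 9 other compounds, 98.1 in the activated control and 940 in the non-activated control. The membrane progestin receptor gene Paqr7 had 175 units in E33, 78.2 to 112 in the 9 other compounds, 81.3 in the activated control and 483 in the non-activated control. Lpar6, a receptor for lysophosphatidic acid, was the exception, with 141 units in E33 and 224 in E29.

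Nutrient and stress regulators formed a small group with a median of 0.96 over the 9 other compounds. Sesn1, a sestrin that restrains mTORC1 and is a p53 target, had 208 units in E33, 92.4 to 111 (median 97.9) in the 9 other compounds, 123 in the activated control and 1091 in the non-activated control. Its fall of 10.8-fold was the second largest among members and only 24.1% of it was recovered, yet the 9 other compounds lay close together and well below E33. Castor2, a relative of the arginine sensor of the same pathway, had 130 units in E33, 61.5 to 94.8 in the 9 other compounds, 79.5 in the activated control and 184 in the non-activated control. A further Castor2 probe, no member, showed neither the fall nor the rise in E33. Gadd45g, a growth arrest and DNA damage gene, had 258 units in E33, 113 to 250 (median 132) in the 9 other compounds, 69.9 in the activated control and 487 in the non-activated control. The highest of the 9 was E29, and the activated control was the lowest activated array.

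The 8 lipid genes covered several steps. With Mlycd, Cpt2 acts in mitochondrial fatty acid oxidation and had 139 units in E33, 63.3 to 110 (median 81.7) in the 9 other compounds, 81.5 in the activated control and 165 in the non-activated control. Nceh1, a hydrolase that releases stored cholesterol esters in macrophages, had 1443 units in E33, 703 to 1329 (median 835) in the 9 other compounds, 818 in the activated control and 3320 in the non-activated control. Daglb, which makes the endocannabinoid 2-arachidonoylglycerol, had 628 units in E33, 312 to 815 (median 442) in the 9 other compounds, 400 in the activated control and 2332 in the non-activated control. E29 lay close to E33 for Nceh1 and above it for Daglb. Dhcr7, the last step of cholesterol synthesis, had 89.4 units in E33, 80.2 in E29, 56.8 in the activated control, where it was not detected, and 147 in the non-activated control.

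Ubiquitin pathway members included the F-box proteins Fbxo9, Fbxo21, Fbxo31 and Fbxw4, which select substrates for SCF ubiquitin ligases. Fbxo21 had 155 units in E33, 10 to 88.9 (median 62.6) in the 9 other compounds, 51.9 in the activated control, where it was not detected, and 186 in the non-activated control. Pomgnt2, which extends sugars on α-dystroglycan, and Gcnt1, which branches O-glycans, headed the glycan genes, all 6 probes of which were highest in E33. The 7 probes for DNA repair and cell division came from 5 genes and had a median of 0.38, and E33 was highest for 2 of them. Msh6 of mismatch repair, for example, had 448 units in E33, 257 to 466 (median 343) in the 9 other compounds, 260 in the activated control and 1261 in the non-activated control, with E19 above E33.

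Among transcription regulators, Klf2, a factor that restrains inflammatory gene expression in myeloid cells, had 86.5 units in E33, 11.9 to 62.7 (median 29.5) in the 9 other compounds, 41.4 in the activated control and 255 in the non-activated control. It was detected on 3 of the 12 arrays only. Ldb1 had 737 units in E33, 919 in E29, 443 in the activated control and 1811 in the non-activated control. Trim8, from the ubiquitin group, had 787 units in E33, 648 in E29, 511 in the activated control and 2062 in the non-activated control. The enzymes of RNA modification Trub1, Trmt61a and Mettl8, the mitochondrial RNA polymerase Polrmt and the mitochondrial ribosomal protein Mrps26 were highest in E33 among activated arrays by all of their member probes. A further Trub1 probe, no member, had 74.8 units in E33 and 82.2 in E29.

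**Figure D4:**
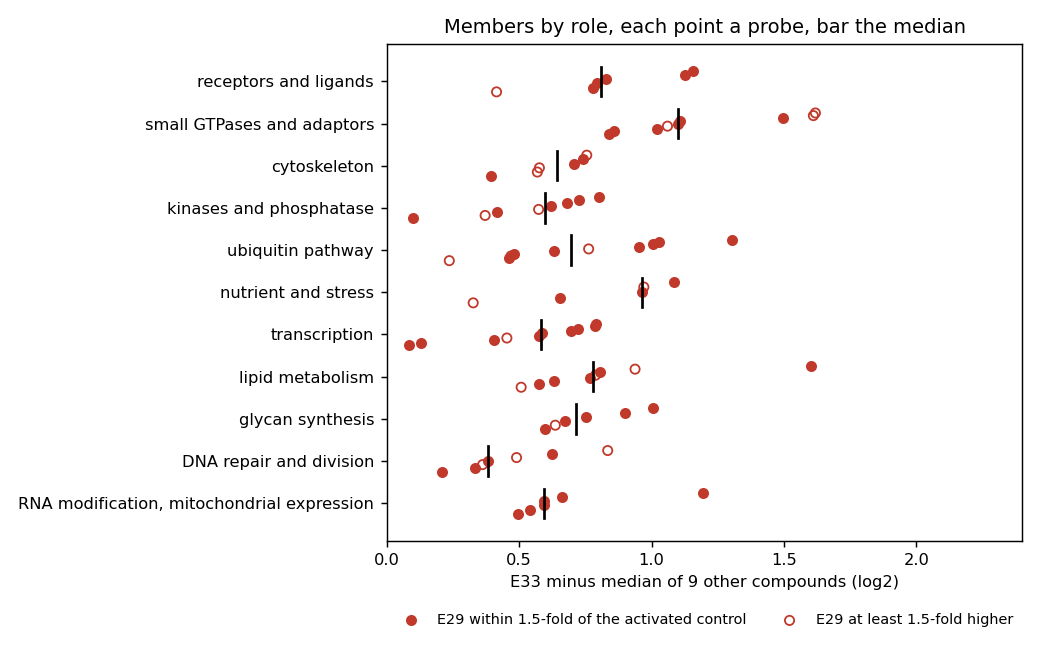
Difference of E33 from the median of the 9 other compounds (log2) for the part of the member probes that was grouped by role, with black bars at the group medians; filled points are probes within 1.5-fold of the activated control in E29 and open points those at least 1.5-fold higher there. The group medians run from 0.38 to 1.10 over members that were chosen for a high E33 level, and genes with 2 member probes give 2 points.

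For 8 genes both probes that the array carries among repressed ones were members, namely Add3, Atmin, Ercc5, Fbxo31, Gcnt1, Msh6, Pomgnt2 and Trub1. Add3, a membrane skeleton protein, was 0.97 and 1.02 above the activated control in E33 by its 2 probes, Atmin 1.10 and 1.37, Gcnt1 0.75 and 0.85, and Pomgnt2 0.63 and 1.32. A further 67 probes on the array belong to 46 of the member genes without being members, and 32 of them were detected on the non-activated or E33 array. Of the 32, 30 were lower after activation and 7 at least 2-fold so, against 5.91% of all probes tested for the latter. Keeping probes detected on the non-activated array favours both counts. In E33, 23 of the 32 lay above the activated control, with a median difference of 0.26. Keeping probes detected on the E33 array favours this count, and the matching share of all probes was not counted. Only 1, a Cdk20 probe, passed 1.5-fold, as did 4.94% of all probes tested. Repressed probes past 1.5-fold were members unless lower in E29, as this Cdk20 probe was. The choice of probes thus holds this count low, and it is not compared with that share. Second probes of Nav1 (301 units in E33, 202 in the activated control) and Ppm1f (566 and 413) were 0.58 and 0.45 higher in E33 than in that control. They were picked after their values were seen. Others did not follow the member probe. A Castor2 probe had 75.7 units in E33, 76.8 in the activated control and 69.1 in the non-activated control. A Rhobtb2 probe had 51.1, 62.9 and 78.1 units, and an Adal probe 67.6, 80.0 and 79.4. These were also picked after their values were seen. Which transcript of a gene each probe reads was not looked at.

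The comparison with the other compounds depended on the baseline. Against the activated control, which the rule had used and which all compounds share, members were at least 1.5-fold higher 14 times in E4 (2.81% of all probes tested), 15 in E5 (3.47%), 18 in E14 (1.50%), 18 in E18 (1.67%), 17 in E19 (4.33%), 4 in E20 (1.76%), 9 in E21 (1.50%), 4 in E23 (1.34%) and 35 in E29 (18.1%). These counts rest in part on a control array chosen to be low. With the other 10 activated arrays as baseline (their median) they were 3 in E4 (1.51%), 1 in E5 (1.25%), 1 in E14 (0.296%), 4 in E18 (0.480%), 5 in E19 (2.02%), 1 in E20 (0.822%), 1 in E21 (0.527%) and 1 in E23 (0.342%). As shares of the members these were 3.36% in E18, 4.20% in E19 and 2.52% in E4, each above its background share, and 0.840% in each compound with 1. Counts this small do not set 1 of these compounds apart. E33 itself had 84 on that baseline (3.56%), E29 had 27 (15.6%) and the activated control 0 (1.63%).

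Few members were lower in a compound than in the activated control, which the choice of members for a low level on that array favours. At least 1.5-fold lower than the activated control were 3 members in E5 (3.90%), 3 in E19 (4.92%) and 1 in E23 (2.42%), and 0 in E4 (2.47%), E14 (2.76%), E18 (2.42%), E20 (2.54%) and E21 (2.21%). Below the median of the other 10 arrays by 1.5-fold were 2 in E4 (0.619%), 4 in E5 (1.05%), 0 in E14 (0.286%), 0 in E18 (0.462%), 2 in E19 (1.49%), 5 in E20 (0.573%), 1 in E21 (0.203%), 2 in E23 (0.176%), 9 in E29 (15.8%), 0 in E33 (3.09%) and 7 in the activated control (0.582%). Small as they are, these counts lay above the background share in E4, E5, E19, E20, E21, E23 and the activated control, and under it in the others.

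Over all 654 repressed probes, 139 were at least 1.5-fold higher and 20 lower in E33 than in the activated control, where 4.94% of all probes tested were higher and 5.29% lower. In E29 174 were higher and 102 lower. The other 8 compounds had 9 (E23) to 62 (E19) higher and 22 to 44 lower. On the other baseline, the median of the 10 other activated arrays, E33 had 127 higher and 15 lower, E29 166 and 102, and E19 37 and 11.

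**Figure D5:**
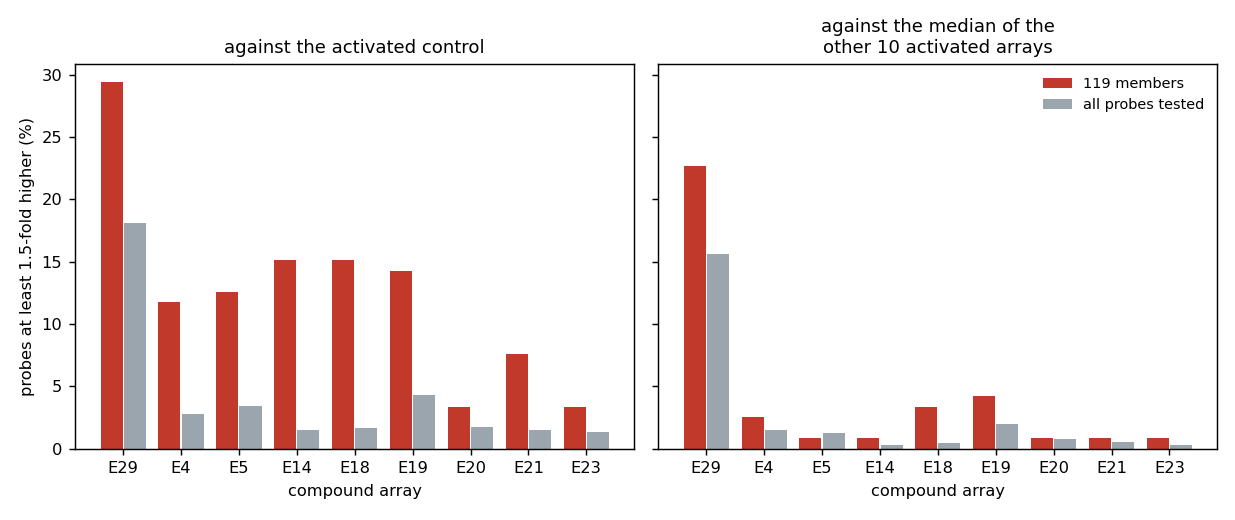
Share of the 119 members (red) and of all probes tested (grey) that were at least 1.5-fold higher in each compound other than E33, against the activated control (left) or the other 10 activated arrays, by their median (right). On the left the member shares run from 3.36% to 29.4%; on the right they are 22.7% in E29 and at most 4.20% in the 8 others.

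Members were higher in E29 about as often as repressed probes in general. In 35 members E29 was at least 1.5-fold above the activated control. That share of 29.4% compares with 18.1% of all probes tested and 26.6% of all repressed probes. The remaining 84 members lay within 1.5-fold, since the rule had removed those that were lower, which favours the share of members. On the baseline of the 10 other activated arrays, E29 was 1.5-fold higher for 22.7% of members and 25.4% of all repressed probes. In 22 members E29 lay above E33, and the matching share of all probes was not counted. Klhl21, an adaptor of CUL3 ubiquitin ligases, had 234 units in E33, 820 in E29, 120 in the activated control and 889 in the non-activated control. Cenpn, a centromere protein, had 260 units in E33, 675 in E29, 165 in the activated control and 301 in the non-activated control. Of the 84 members that were highest in E33, E29 was 1.5-fold above the activated control in 11, among them Arl11, Rassf3 and Gadd45g.

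The 20 repressed probes removed by the E29 condition were higher in E33 and lower in E29, by a log2 difference of -0.59 to -2.10 from the activated control. They included Hhex, a homeobox factor, with 696 units in E33, 161 in E29, 399 in the activated control and 1227 in the non-activated control. Ppargc1b, a coactivator of mitochondrial genes, had 317 units in E33, 39.8 in E29, 186 in the activated control and 447 in the non-activated control. For these genes the E33 and E29 arrays lay on opposite sides of the activated control.

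Among 18 lists of pathway genes, 46 probes were repressed and 9 of those were members, from 8 genes. By comparison 119 of all 654 repressed probes (18.2%) were members. The glucocorticoid target list had 2 members, Tsc22d3 and Fkbp5, among 3 repressed probes. The receptor list had 2 (P2ry1 and Tgfbr2) of 8, the homeostatic microglia list 1 (Tgfbr2) of 5, the S phase list 2 (both probes of Msh6) of 5, the growth regulator list 1 (Klf2) of 4, the p53 list 1 (Sesn1) of 3 and the cholesterol synthesis list 1 (Dhcr7) of 4. No member came from the lists for mitosis (1 repressed probe), fatty acid synthesis (3), LXR targets (1), lysosome and autophagy (2), DNA repair (1), mitochondrial energy (2), NRF2 targets (4) and cAMP targets (2). The lists for alternative activation, NF-κB and interferon had no repressed probe. The listed probes were thus members about as often as repressed probes in general.

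Some repressed genes of these lists did not recover in E33. Mef2c, a transcription factor of resting microglia, had 280 units in E33, 299 in the activated control and 1520 in the non-activated control by its brightest probe. A second probe had 71.5, 86.5 and 443 units, and the third lay under 50 on every activated array. Cholesterol synthesis had the lowest median E33 difference of the 18 lists, at -0.69. At the level of probes, 15 of its 23 probes were at least 1.5-fold lower in E33 than in the activated control and 1, Dhcr7, was higher, where 5.29% of all probes tested were lower. The repressed genes Hsd17b7, Mvd and Stard4 had 572, 120 and 96.1 units in E33, against 1110, 212 and 172 in the activated control. Tlr13, a receptor for bacterial RNA, had 126 units in E33, 292 in the activated control and 1839 in the non-activated control. Apart from the list counts, these genes were picked after their values were seen.

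By the correlation of the profile over all 12 arrays, the 6 repressed probes outside the set that were most like the members' median were those of F8a, Trmt2a, Arhgap39, Pgp, Nr2c2ap and 1 unnamed probe, with Pearson's r of 0.97 to 0.98. All arrays share the same activation fall in this measure. Pgp, a phosphatase of glycolytic by-products, had 2076 units in E33, 1520 to 1911 in the 9 other compounds, 1448 in the activated control and 4054 in the non-activated control, a smaller E33 difference than the rule asks for.

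The number of members depended on how dim signals were treated. With background correction and quantile normalization of the scanner signals by neqc, 148 probes met the rule, and 102 of them were among the 119. Without background correction 26 did, 23 of them among the 119. Of the 119, 29 were then at least 1.5-fold higher in E33 than in the activated control, with a median log2 difference of 0.44 over all 119. All 119 stayed higher in E33 at all, which their choice on the same arrays favours.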

How the data were processed

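RNA of 12 BV2 cultures was labelled and hybridised to Illumina bead arrays, 1 per condition. The authors deposited a scanner table with, per the file headers, an average signal intensity and a detection p-value for each of 25697 probes, and a table of processed intensity values. Per the submitters' processing notes, GenomeStudio 2010.3 was used. The deposited processed intensity put probes in the same order as the scanner intensity (Spearman's rho of 1 above its lowest value of 10 on each array), with array medians of 14.9 to 15.0. How it was normalized is not stated by the sources. Levels are given as processed intensity (units), folds and log2 differences after values under 50 were raised to 50, and a probe was detected at a p-value under 0.01. For members not detected in the activated control the fold is a bound against the lowest detected signal of that array (60.6).

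Of the probes, 23978 carry 1 gene symbol, none has several and 1719 are not in the table of gene names, which is the platform annotation. Through their Entrez IDs 23962 matched a RefSeq gene (GRCm38.p6). Genes were named by rank rules: the 20 furthest above the other 10 activated arrays, the 6 largest falls, the 6 largest recovered shares, the 3 probes on either side of the E33 threshold, members of 18 gene lists, genes with 2 member probes and the 6 most similar repressed probes. One leading member is not reported here. Other genes were named after their values were seen. The members, lists, roles and motifs were chosen with earlier results of these data known.

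The scanner signals were reprocessed with neqc (offset 16) in limma 3.58.1 (R 4.3.3) as an alternative. The rest used pandas 2.3.3 and numpy 2.4.6 under Python 3.11.15, with plots by matplotlib 3.10.9. The selection step was tested on simulated data. With 1 array per condition no test was run and no p-value is given. No slide or scan batch is named, so array, culture and condition cannot be told apart.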

Additional observations from a re-analysis of the deposited data

How the results depend on the processing

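No paired analysis was possible because no condition had more than 1 array. Of 104 alternative values 62 stayed within 1.5 times the reported count or within 0.0845 of the reported median (the SD of the members' median over the 9 other compounds), 42 moved further and 0 changed sign. The last number says little, since most of the values are counts, which have no sign. The median over the activated control could not turn negative either, because each setting chose its members for a rise in E33. Leaving E29 out of the rule and the activated median, giving 140 members, was chosen after seeing the data, as was the baseline without the activated control and E33. By construction a lower floor widens the differences of dim probes, and a higher floor or no background correction narrows them. Signal over background therefore limits the counts. The cause of the other changes was not tested.

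With a floor of 10 there were 1344 repressed probes and 355 members, E33 was highest for 182 and the median over the activated control was 0.97. With a floor of 20 these counts were 1042, 242 and 145, and with a floor of 100 there were 75 members, 51 of them highest in E33. Without background correction there were 302 repressed probes and 26 members, 20 of them highest in E33, with medians of 0.65 over the activated control and 0.60 over the 9 other compounds. A 2-fold E33 threshold left 28 members and a 4-fold fall 24. With E33 set against the 9 other compounds 100 probes met the rule, 79 of them among the 119.

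The members at least 1.5-fold higher were 14 in E4, 15 in E5, 18 in E14, 18 in E18, 17 in E19, 4 in E20, 9 in E21, 4 in E23 and 35 in E29 against the activated control. They were 3, 1, 1, 4, 5, 1, 1 and 1 in the first 8 against the other 10 activated arrays, and 4, 1, 2, 4, 5, 1, 2 and 1 against the compounds alone. At 2-fold they were 2, 1, 0, 0, 5, 0, 0 and 0, and 17 in E29.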
